A study of Ambystoma mexicanum with 8 samples.

Results

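Ryanodine receptors are very large calcium channels in the membrane of the sarcoplasmic reticulum, the calcium store of muscle. When a muscle fibre is excited, they open and release the stored calcium that starts contraction. RYR1 is the skeletal muscle isoform and is coupled to the voltage-sensing dihydropyridine receptor of the surface membrane. RYR3 is a second isoform, which is scarce in most adult mammalian muscles. In frogs, fish and birds, however, skeletal muscle carries both isoforms side by side, where they are known as alpha and beta.

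The 2 genes were followed here as 12 assembled transcripts (contigs) of the axolotl limb, 6 annotated as RYR1 and 6 as RYR3, out of 91843 deposited contigs. The members were chosen by name from the study's own list of 912 transcripts that differed between its groups, and each entry was matched to the contig whose group means it prints. All 12 matched exactly 1 contig. The members were thus selected on the contrast between the groups, so all differences between the groups are given as a description, with no test.

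RNA was sequenced from the limb stump of leucistic axolotls 3 days post-amputation. The 4 Control limbs had been amputated once and came from previously uninjured siblings of the other group. The 4 Multi-amp limbs were failed regenerates, from animals that had undergone 5 earlier rounds of amputation. They were sampled after amputation 6, which was placed slightly closer to the body, within the failed stump. Control limbs were cut at the matching level of the limb. The tissue at that level in a failed stump and the history of amputation cannot be told apart. The names of the libraries tell their group and not the animal. Nothing else in the labels separates cultures or batches, and the spread between libraries is the spread between these samples.

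Library depth was between 15596527 and 18437103 counts, and no pair of libraries held identical values. The members' counts were small at this depth, so single contigs in Control limbs often rested on fewer than 10 fragments. Levels are given as estimated fragment counts (the expected counts of RSEM), as counts per 1000000 counts of the scaled library (CPM), or per length as FPKM (fragments per kilobase of contig, per 1000000 fragments). Where 4 values of a group follow each other without names, they stand in the order Control1, Control3, Control4, Control6 or MR14, MR2, MR5, MR6.

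All 6 RYR1 members fell in 1 read cluster of the assembly, TR24046, and all 6 RYR3 members fell in another, TR17032. A read cluster is a set of contigs that the assembler built from connected reads, and no cluster held members of both genes. The RYR1 contigs had inferred effective lengths between 0.229 and 5.27 kb, and the RYR3 contigs between 0.747 and 2.49 kb. The study's list had 0 entries named RYR2, the cardiac isoform. The axolotl RefSeq annotation has 1 gene each for RYR1, RYR2 and RYR3, but the contig names are not in it, so neither a genome position nor a sequence was assigned to a contig.

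RYR1 was present at a low level in Control limbs and was higher in 3 of the 4 Multi-amp limbs. Its 6 contigs together had 13 counts in Control1, 20 in Control3, 90 in Control4 and 4 in Control6. In the Multi-amp limbs they had 676 counts in MR14, 290 in MR2, 1332 in MR5 and 33 in MR6. The 3 limbs MR14, MR2 and MR5 lay above every Control limb, but MR6 lay below Control4, so the groups overlapped.

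Scaled to library size, RYR1 stood at 1.78 ± 2.27 CPM in Control and 36.6 ± 35.7 CPM in Multi-amp limbs (SD, n = 4 each). The spread within each group was as large as its mean. The ratio of the group means was 20.6, and the log2 fold change of the summed counts fitted with edgeR was 4.36 (SE 1.28). Single libraries weighed heavily in this value. Control4 held 72.3% of the summed Control CPM, and without it the fitted fold was 54.5 in place of 20.6. MR5 held 57.2% of the summed Multi-amp CPM, and without it the fitted fold was 11.8.

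RYR3 had fewer counts, and its highest 4 libraries stood in the same order. Its 6 contigs together had 5 counts in Control1, 11 in Control3, 33 in Control4 and 5 in Control6. In the Multi-amp limbs they had 258 counts in MR14, 112 in MR2, 345 in MR5 and 14 in MR6. Again MR14, MR2 and MR5 exceeded every Control limb and MR6 did not exceed Control4.

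The RYR3 level was 0.756 ± 0.767 CPM in Control and 11.4 ± 9.40 CPM in Multi-amp limbs (SD, n = 4 each). The ratio of the group means was 15.1, with a fitted log2 fold change of 3.91 (SE 1.05). Without Control4, which held 62.4% of the summed Control CPM, the fitted fold was 29.5. Leaving out MR5 gave 10.6. The difference between the fitted values of RYR1 and RYR3 was smaller than either standard error. These errors hold for each gene alone, and both genes were measured in the same libraries. Their ratio within each library is therefore given further on.

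**Figure D1:**
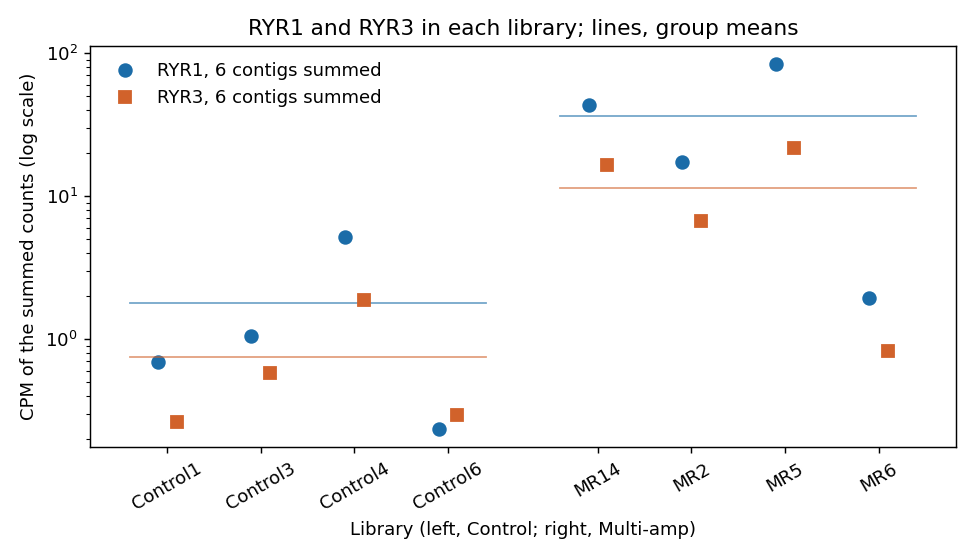
CPM of the summed counts of the 6 RYR1 contigs (circles) and the 6 RYR3 contigs (squares) in each library, on a log axis, with the mean of each group as a line. MR14, MR2 and MR5 lie above all Control libraries for both genes, whereas MR6 lies below Control4, at 1.95 against 5.15 CPM for RYR1.

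Within the Multi-amp group RYR1 differed 42.9-fold between its highest and lowest library and RYR3 differed 26.2-fold, and MR5 was the highest and MR6 the lowest for both. Within the Control group the corresponding values were 21.9 for RYR1 and 7.14 for RYR3, with Control4 on top for both. The low end of the Control range rests on 4 and 5 counts and is therefore imprecise.

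The largest RYR1 contig, TR24046 c3_g2_i1, carried most of the signal. It had 7, 11, 51 and 2 Control counts and 383, 158, 783 and 20 Multi-amp counts. It held 55.9% of the RYR1 member counts in Control and 57.6% in Multi-amp limbs. Its FPKM was 0.198 ± 0.251 in Control and 3.998 ± 3.85 in Multi-amp limbs (SD, n = 4 each).

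The second contig by counts, TR24046 c1_g1_i1, had 4, 6, 24 and 0 counts in the Control libraries and 173, 89, 297 and 4 in the Multi-amp libraries. MR6 was level with Control1 and below Control4. TR24046 c7_g1_i1 had 2, 1, 9 and 2 Control counts and 50, 16, 72 and 3 Multi-amp counts. TR24046 c2_g3_i1 had 0, 1, 5 and 0 Control counts and 32, 19, 82 and 6 Multi-amp counts. This last contig was the only member whose groups did not overlap in FPKM, with a highest Control value of 0.294 and a lowest Multi-amp value of 0.362, which correspond to 5 and 6 counts.

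The remaining RYR1 contigs were at the limit of detection in Control limbs, taken as at most 3 counts in every library. The short contig TR24046 c3_g3_i1 had 0, 1, 1 and 0 Control counts and 15, 8, 47 and 0 Multi-amp counts. It had the highest Multi-amp mean FPKM of all members, 4.79 ± 5.47 (SD, n = 4), over an effective length of only 0.229 kb. TR24046 c0_g1_i1 was listed at 0 in all Control limbs and in MR2 and MR6, with 23.2 counts in MR14 and 51.4 in MR5. These were the only fractional values among the members.

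RSEM can divide fragments that match several contigs. Added to the values of TR24046 c0_g2_i1, a contig of the same cluster that is not in the study's list, the fractional values became whole numbers. The pair together had 0, 1, 9 and 0 Control counts and 55, 21, 117 and 1 Multi-amp counts. The pair was thus detected in Control3 and Control4, although the member alone was listed at 0 there. As for the other contigs at the limit of detection in Control limbs, no fold change is given for TR24046 c0_g1_i1 alone. Its counts are part of the RYR1 sum.

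Among the RYR3 contigs, TR17032 c4_g1_i1 had the most counts. It had 3, 3, 11 and 2 Control counts and 102, 41, 158 and 8 Multi-amp counts. This contig made up 35.2% of the RYR3 member counts in Control and 42.4% in Multi-amp limbs. Its FPKM was 0.112 ± 0.0958 in Control and 1.94 ± 1.63 in Multi-amp limbs (SD, n = 4 each).

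TR17032 c1_g1_i1 had 1, 1, 5 and 0 Control counts and 58, 18, 53 and 1 Multi-amp counts. TR17032 c2_g1_i1 had 0, 3, 7 and 1 Control counts and 27, 20, 32 and 2 Multi-amp counts. The lowest Multi-amp library was again MR6, below Control4 in both. TR17032 c6_g1_i1 had 1, 1, 4 and 1 Control counts and 24, 8, 35 and 2 Multi-amp counts.

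TR17032 c11_g1_i1 and TR17032 c5_g1_i1 were at the limit of detection in Control limbs. The first had 0, 1, 3 and 1 Control counts and 25, 16, 25 and 0 Multi-amp counts. The second had 0, 2, 3 and 0 Control counts and 22, 9, 42 and 1 Multi-amp counts. Neither was detected above 1 count in MR6.

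**Figure D2:**
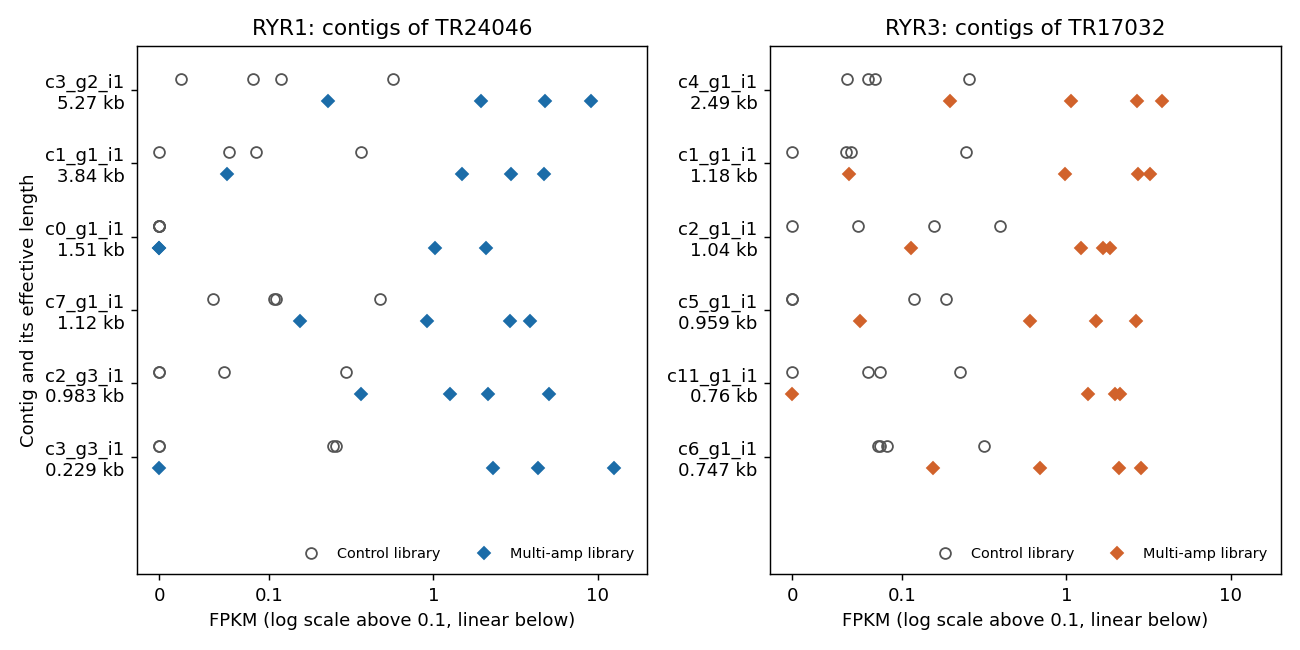
FPKM of each of the 12 contigs in each library, with RYR1 on the left and RYR3 on the right, ordered by effective length from the bottom up; open circles are Control and filled diamonds Multi-amp libraries, and the axis is linear below 0.1 and logarithmic above. In 11 of 12 contigs the highest 3 Multi-amp libraries lie clear of all Control libraries, and MR6 exceeds Control4 in 1 contig, TR24046 c2_g3_i1. The contigs were selected on this contrast, so nothing is read from these counts.

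The contigs of a gene varied together across libraries, but not in exact proportion. All 12 had a higher mean FPKM in Multi-amp than in Control limbs, which the selection had fixed for them. In 11 of 12 contigs, MR14, MR2 and MR5 all exceeded every Control library, and the exception was TR24046 c0_g1_i1. The share of all contigs with this pattern was not computed. Nothing is read from the count, since the members were selected on this contrast. MR6 was below Control4 in 10 contigs, equal in 1 and above it in 1. For the 8 contigs above the limit of detection in Control limbs, the ratio of mean CPM ranged from 8.21 for TR17032 c2_g1_i1 to 25.7 for TR24046 c2_g3_i1. These contigs share libraries and, within a gene, a read cluster, and are not replicates.

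MR5 was the highest Multi-amp limb for both gene sums, and its excess over MR14 varied between contigs. All 6 RYR1 contigs were highest in MR5, with counts between 1.44 and 3.13 times those in MR14. Of the 6 RYR3 contigs, 4 had their highest FPKM in MR5 and 2, TR17032 c1_g1_i1 and TR17032 c11_g1_i1, in MR14, at 58 against 53 counts and at 25 counts in both. The MR5 to MR14 ratio of counts in RYR3 contigs ran from 0.914 to 1.91.

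Across all contigs, 32757 passed the filter on low counts, and only 3 of the 12 members were among them, namely TR24046 c3_g2_i1, TR24046 c1_g1_i1 and TR17032 c4_g1_i1. With edgeR's quasi-likelihood test at an FDR of 0.05, 0 of these 3 were called, against 0.00611% of all tested contigs called higher in Multi-amp limbs. At an unadjusted p of 0.05 the same test called 3 of 3, against 6.47% of all tested contigs. The edgeR exact test at an FDR of 0.05 called 2 of 3, against a background of 0.885%, and the DESeq2 Wald test called 3 of 3, against 1.74%. Non-overlapping groups were found in 0 of the 3, against 2.32% of all tested contigs. Since the members were taken from a list made on this contrast, nothing is read from these counts. The fitted log2 fold changes of the 3 were 4.40 (SE 1.28), 4.20 (SE 1.33) and 4.16 (SE 0.99) in that order, and the median over all tested contigs was -0.01.

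The balance between the isoforms was examined as the RYR1 share of the RYR1 and RYR3 counts in each library, in which library scaling cancels. Over all 8 libraries, 2459 member counts were from RYR1 and 783 from RYR3. RYR1 made up 72.2% in Control1, 64.5% in Control3, 73.2% in Control4 and 44.4% in Control6. It made up 72.4% in MR14, 72.1% in MR2, 79.4% in MR5 and 70.2% in MR6. With the 6 entries of each gene, RYR1 counts thus exceeded RYR3 counts in 7 of 8 libraries, and the exception, Control6, had 4 and 5 counts.

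The precision of these shares followed the counts behind them. The exact Clopper-Pearson 95% interval ran from 13.7% to 78.8% in Control6 and from 46.5% to 90.3% in Control1. In MR5 it ran from 77.4% to 81.3%, above the interval of MR14, which ran from 69.4% to 75.2%, and that of MR2, from 67.5% to 76.5%. Within 1 group, the MR5 interval thus lay apart from those of MR14 and MR2. That of MR6, from 55.1% to 82.7%, included the MR5 share. The intervals cover counting error only and take fragments as independent, which fragments amplified by PCR are not.

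**Figure D3:**
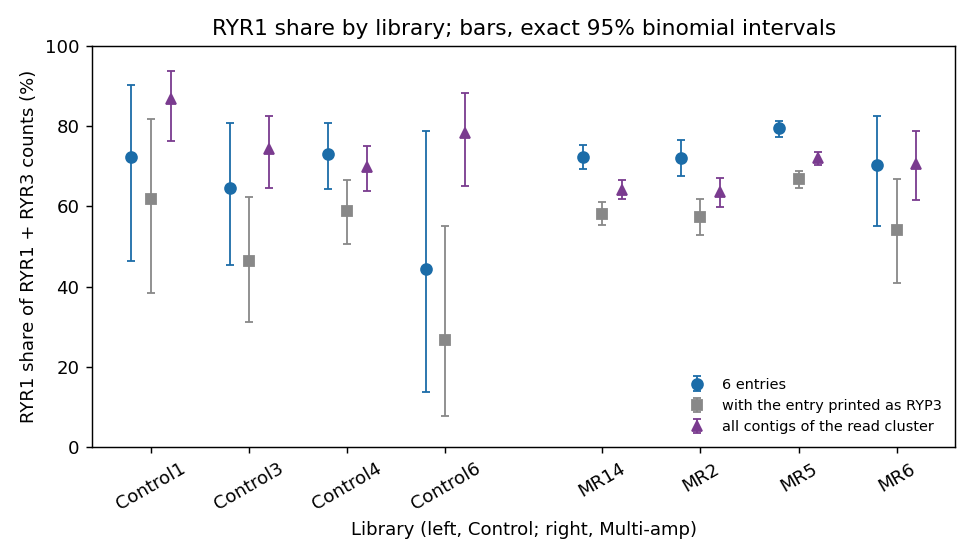
RYR1 share of the RYR1 and RYR3 counts in each library, in percent, with exact binomial 95% intervals as bars, for the 6 entries of each gene (circles), with the contig of the entry printed as RYP3 added (squares) and for all contigs of the read clusters (triangles). With the 6 entries, Control intervals are wide and include the Multi-amp values of MR14, MR2 and MR6. All but that of Control6 also include the MR5 value, the highest at 79.4%.

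On the log2 scale the RYR1 to RYR3 ratio was 0.84 ± 0.82 in Control and 1.49 ± 0.32 in Multi-amp limbs (SD, n = 4 each), and the groups overlapped. The difference of 0.65 was smaller than the Control SD. It was 0.26 without Control6, whose ratio of -0.32 was the lowest. Pooled over libraries, the share was 70.2% in Control and 76.2% in Multi-amp limbs, but the Multi-amp value is weighted towards MR5, which held the most counts.

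Counts also follow contig length, and the RYR1 contigs summed to 12.95 kb against 7.17 kb for RYR3. Per length, RYR1 stood at 0.137 ± 0.175 FPKM in Control and 2.83 ± 2.76 FPKM in Multi-amp limbs (SD, n = 4 each). RYR3 stood at 0.105 ± 0.107 FPKM in Control and 1.60 ± 1.31 FPKM in Multi-amp limbs. The RYR1 to RYR3 ratio per length was 1.44, 1.01, 1.51 and 0.443 for Control limbs. It was 1.45, 1.43, 2.14 and 1.30 for Multi-amp limbs. With the 6 entries of each gene, RYR1 was therefore higher per length in every Multi-amp limb, at less than the ratio of raw counts. The lengths are those of the assembled pieces and not of whole transcripts.

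The isoform balance depended on which contigs were counted as RYR3. An entry of the study's list printed as RYP3_HUMAN, a name the selection did not take, matched TR17032 c0_g1_i1, a contig of the RYR3 read cluster with an effective length of 3.58 kb. It had 3, 12, 30 and 6 Control counts and 228, 103, 317 and 14 Multi-amp counts, more than any RYR3 member in all libraries except Control1, where TR17032 c4_g1_i1 had as many. With it included, RYR3 had 8, 23, 63 and 11 Control counts and 486, 215, 662 and 28 Multi-amp counts. The RYR1 share over all libraries then became 62.2% in place of 75.8%. RYR1 then had fewer counts than RYR3 in Control3, at a share of 46.5%, and in Control6, at 26.7%. In the other libraries RYR1 kept the larger share. The RYR3 fold changed little, from 15.1 to 14.8. The RYR1 to RYR3 ratio per length in Multi-amp limbs then lay between 0.978, in MR6, and 1.67, in MR5.

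The read clusters held more contigs than the list. TR24046 had 14 deposited contigs, of which 6 were members, 1 was an unnamed entry of the list and 7 were not in it. The unnamed entry, TR24046 c3_g1_i1, had 11, 21, 36 and 12 Control counts and 190, 71, 333 and 23 Multi-amp counts. Of the 7 others, 4 had more counts in Multi-amp and 3 did not. The contig TR24046 c8_g1_i1 had 26, 18, 22 and 15 Control counts and 8, 8, 20 and 6 Multi-amp counts, a pattern unlike that of any member. TR17032 had 15 contigs, of which 8 were not in the list, and all 8 had more counts in Multi-amp limbs.

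Summed over all 14 and all 15 contigs, RYR1 had 59, 75, 191 and 43 Control counts and 1048, 452, 2003 and 82 Multi-amp counts. The fitted fold of RYR1 was then 10.97 in place of 20.6, and that of RYR3 was 14.3. The order of the 2 folds was reversed, and so was the change of the RYR1 to RYR3 log2 ratio, which went from 0.65 to -0.75. MR6 stayed below Control4 for both sums. Whether each unnamed contig belongs to the gene of its cluster was not tested.

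The other genes of muscle calcium handling were taken from the same list of differing transcripts, as 25 contigs under 12 names. Of these, 8 contigs passed the filter and all 8 were higher in Multi-amp limbs, against 49.2% of all tested contigs. Their median log2 fold change was 4.04, beside -0.01 over all tested contigs. With edgeR's quasi-likelihood test, 0 of 8 passed an FDR of 0.05 and 8 of 8 had an unadjusted p under 0.05, against the background of 6.47%. The list was chosen by the study on these samples, so its direction is not independent evidence.

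Partners of the channel inside the sarcoplasmic reticulum came first. Triadin (TRDN), which anchors calsequestrin to the ryanodine receptor, had 7 contigs with a summed level of 0.264, 0.210, 0.915 and 0.177 CPM in Control limbs and 19.3, 6.65, 27.5 and 1.46 CPM in Multi-amp limbs. Here MR6 exceeded Control4, at 24.6 against 16 counts. Of these, 18 and 0 were from the contig TR6410 c2_g1_i1, and no other triadin contig was higher in MR6 than in Control4. Calsequestrin-2 (CASQ2), a calcium-binding protein of the store, had 0.159, 0.262, 1.26 and 0.118 CPM in Control limbs and 12.996, 2.77, 20.5 and 1.18 CPM in Multi-amp limbs. The histidine-rich calcium-binding protein (SRCH) had 0.159, 0.525, 1.94 and 0.177 CPM in Control limbs and 14.5, 6.68, 19.9 and 0.414 CPM in Multi-amp limbs. For SRCH, as for the receptors, MR6 was below Control4. For CASQ2 these libraries were nearly level, at 20 counts in MR6 and 22 in Control4. Its contig TR24947 c1_g1_i1 had 16 counts in MR6 against 14 in Control4, and TR24947 c1_g2_i1 had 4 against 8.

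Among genes of calcium uptake, the pump SERCA1 (AT2A1) had 1.22, 11.1, 41.5 and 2.91 CPM in Control limbs and 483, 42.5, 593 and 26.8 CPM in Multi-amp limbs. MR2 was close to Control4 and MR6 below it. Sarcolipin (SARCO), a small inhibitor of the pump, had 0.211, 0.367, 3.15 and 0.0589 CPM in Control limbs and 27.2, 4.76, 47.2 and 4.85 CPM in Multi-amp limbs, with no overlap. Sarcalumenin (SRCA), a calcium-binding glycoprotein of the reticulum, had 0.740, 2.04, 12.6 and 1.06 CPM in Control limbs and 86.2, 16.0, 117 and 5.12 CPM in Multi-amp limbs. Parvalbumin (PRVB) is a soluble calcium buffer of fast fibres. It had 0.0528, 0.0525, 1.37 and 0.118 CPM in Control limbs and 11.2, 2.11, 16.0 and 0.178 CPM in Multi-amp limbs. MR14, MR2 and MR5 exceeded every Control limb, and MR6 was below Control4.

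Subunits of the voltage-gated calcium channel were near the limit of detection. CA2D1, an alpha-2/delta subunit, had 0, 1, 1 and 0 Control counts and 10, 7, 11 and 4 Multi-amp counts. CCG6, a gamma subunit, had 0, 0, 1 and 0 Control counts and 13, 3, 8 and 2 Multi-amp counts. The anchoring protein AKAP6 had 1, 1, 5 and 0 counts over 6 contigs in Control limbs and 119, 61, 224 and 8 in Multi-amp limbs. KCC2A, a calmodulin-dependent kinase, had 0, 1, 1 and 1 Control counts and 29, 2, 33 and 1 Multi-amp counts.

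Calmodulin (CALM), a calcium sensor of all cells that also binds the ryanodine receptor, behaved differently in size. Its 2 contigs together had 84.6, 166.8, 97.7 and 85.2 CPM in Control limbs and 278, 370, 379 and 245 CPM in Multi-amp limbs, with no overlap. Their log2 fold changes were 1.67 (SE 0.26) and 1.44 (SE 0.26), compared with 4.36 and 3.91 for the receptors. In MR6 calmodulin was lowest of its group but close to the other Multi-amp limbs, while RYR1 in MR6 was within the Control range.

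**Figure D4:**
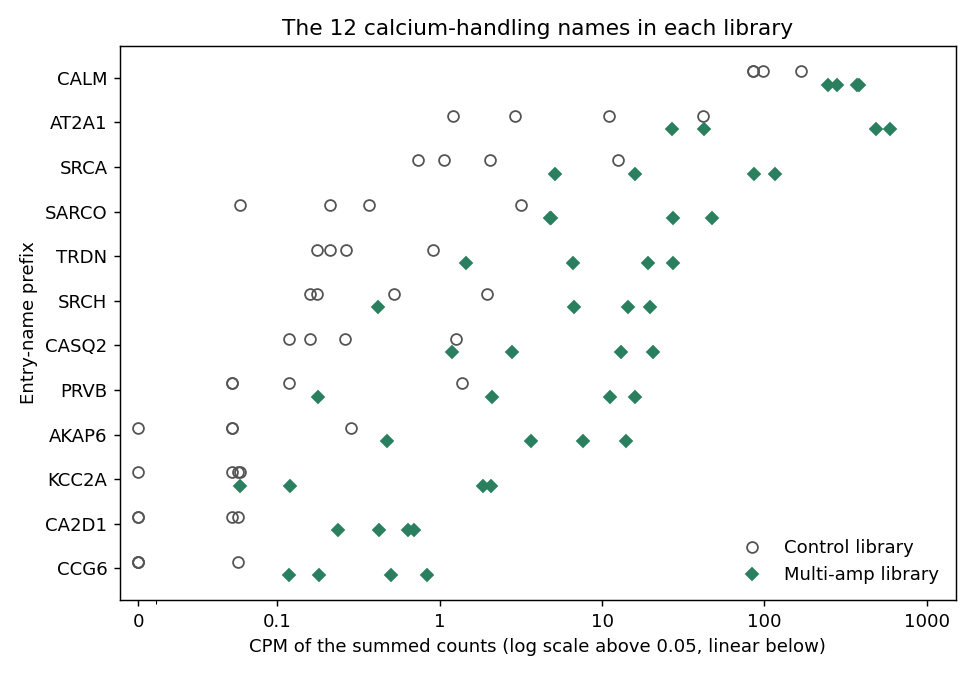
CPM of the summed counts of the 12 calcium-handling names in each library, ordered by total level, with open circles for Control and diamonds for Multi-amp libraries, on an axis that is linear below 0.05 and logarithmic above. Calmodulin (CALM) has its Multi-amp libraries close together, from 245 to 379 CPM, whereas the pump AT2A1 runs from 26.8 to 593 CPM in the same libraries.

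Transcripts of the sarcomere, the contractile unit of muscle, differed between the libraries and moved with both receptors. The sarcomere list, 97 contigs under 36 names such as titin, nebulin and myosins, had 78.2, 259, 1142 and 88.6 CPM in Control limbs. It had 8968, 2578, 13177 and 517 CPM in Multi-amp limbs. The order of the Multi-amp libraries was that of RYR1 and RYR3, and MR6 was again below Control4. Of the 97 contigs, 6 (6.19%) were at 0 in all Control limbs, against 2.83% of all deposited contigs. The groups did not overlap in 23 of the 97, of which 50 passed the filter, against 2.32% of all tested contigs. The second share leaves out contigs that did not pass the filter, so the sets are unlike. Nothing is read from this count or from that of contigs at 0, because the list was selected on this contrast. In such bulk samples, fewer muscle cells and less RNA per muscle cell cannot be told apart.

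Set against the sarcomere list, the spread of the receptors was much smaller. RYR1 CPM differed 355-fold between its highest and lowest library, but its ratio to the sarcomere counts differed 3.30-fold. For RYR3 the corresponding values were 82.0 and 2.11. The sarcomere list itself differed 168-fold in CPM between its highest and lowest library. Receptors and list were both selected on this contrast, so nothing is read from the smaller spread. Per 1000 sarcomere counts, RYR1 had 8.78, 4.05, 4.51 and 2.66 counts among Control limbs, against 4.83, 6.78, 6.35 and 3.78 among Multi-amp limbs. RYR3 had 3.38, 2.23, 1.65 and 3.32 counts among Control limbs, against 1.84, 2.62, 1.64 and 1.60. The groups overlapped for both ratios.

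The log2 ratio of RYR1 to sarcomere counts was 0.22 higher in Multi-amp limbs, with an SD of 0.71 in Control and 0.39 in Multi-amp limbs (n = 4 each). For RYR3 the difference of Multi-amp from Control was -0.43 on the same scale, with an SD of 0.50 in Control and 0.33 in Multi-amp limbs. Both differences were below the Control SD. The sign for RYR1 was not stable, since the difference was -0.04 without Control6 and -0.83 when titin and nebulin alone stood for the sarcomere. For RYR3 it was -1.48 with titin and nebulin alone. Both lists and both genes came from transcripts selected on the same contrast.

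**Figure D5:**
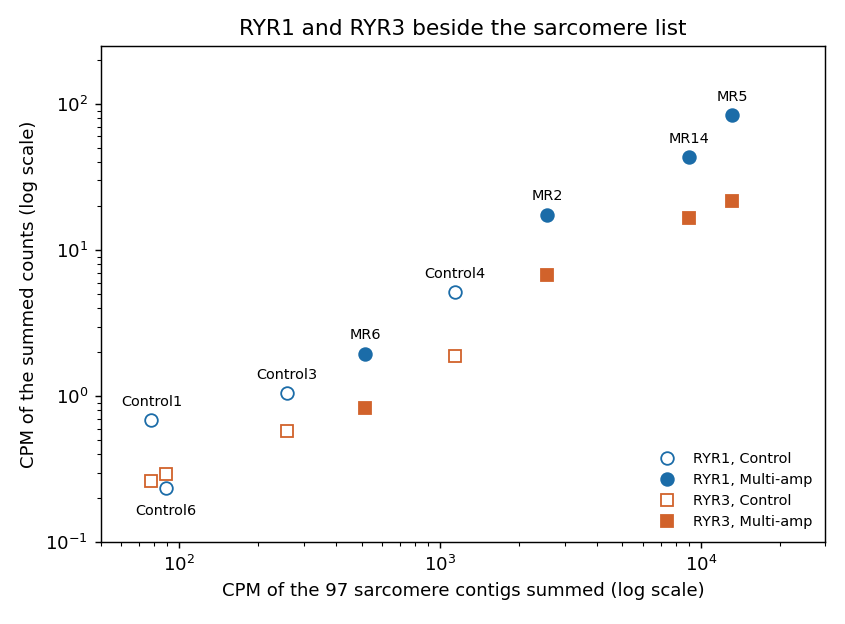
CPM of RYR1 (circles) and RYR3 (squares) against the CPM of the 97 sarcomere contigs in the same library, both axes logarithmic, with open symbols for Control and filled symbols for Multi-amp libraries. RYR3 keeps the order of the sarcomere list over all 8 libraries. RYR1 does so except in Control1, lowest in the list at 78.2 CPM, where it exceeds Control6, at 0.687 against 0.236 CPM. MR6, at 517 CPM of sarcomere transcripts, lies between Control3, at 259, and Control4, at 1142. Genes and list were selected on the same contrast.

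Other tissue markers from the same list also differed between the libraries. Acetylcholine receptor subunits of the neuromuscular junction (4 contigs) had 0.211, 0.840, 2.12 and 0.824 CPM in Control limbs and 13.4, 2.29, 22.1 and 3.67 CPM in Multi-amp limbs. Cartilage markers (8 contigs) ranged from 1.31 to 2.22 CPM in Control and from 11.2 to 178 CPM in Multi-amp limbs. B cell markers (5 contigs) ranged from 516 to 856 CPM in Control and from 154 to 284 CPM in Multi-amp limbs. Epidermal markers (4 contigs) ranged from 1030 to 3975 CPM in Control and from 329 to 1422 CPM in Multi-amp limbs, with MR6 the highest of its group. The sum was not shared by its members, since the keratins K2C5 and K2C6A had log2 differences of -3.20 (SE 1.09) and -4.17 (SE 0.92) between Multi-amp and Control, and the laminin chains LAMA3 and LAMB3 had 2.00 (SE 0.45) and 1.84 (SE 0.56). Their part in the receptor values was not tested.

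Among 364 named contigs of the list with at least 100 summed counts, those with the steadiest ratio to the RYR1 sum were sought by the SD of the log2 ratio over the 8 libraries. The first 5 were M-protein (MPSF), with an SD of 0.44, ANKR1 with 0.46, a myosin-binding protein C contig (MYPC1) with 0.46, filamin C (FLNC) with 0.49 and a nebulin contig (NEBU) with 0.50. The median SD over the 364 contigs was 1.96, and over the 67 sarcomere contigs among them it was 0.99. M-protein, a protein of the sarcomere's M-band, had 9, 16, 99 and 8 Control counts and 619, 288, 1034 and 33 Multi-amp counts. In MR6 it had as many counts as RYR1.

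For RYR3 the nearest contig was that of the entry printed as RYP3, with an SD of 0.26. It was followed by SRCH with 0.37, the xin repeat protein XIRP2 with 0.39, M-protein with 0.42 and muscle phosphofructokinase (PFKAM) with 0.46, and the median was 1.63. SRCH had 3, 10, 34 and 3 Control counts and 227, 111, 316 and 7 Multi-amp counts, close to the RYR3 sum in most libraries. M-protein was among the first 5 for both genes. These likenesses describe 8 libraries that share their differences in sarcomere transcripts, and carry no test.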

How the data were processed

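The authors assembled paired-end reads de novo with Trinity, annotated contigs with Trinotate and estimated fragments with RSEM. They deposited expected counts per contig and library, without normalization, and FPKM values scaled between libraries by TMM. The deposited expected counts were rounded to whole numbers for the fits. Effective lengths were inferred from counts and FPKM. Members were matched to the study's list within 1e-06 FPKM. Members, lists and alternatives were chosen with earlier results of these data known.

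The whole table was fitted with edgeR 4.0.16 in R 4.3.3 (filterByExpr, TMM, robust quasi-likelihood F-test, Benjamini-Hochberg adjustment over all contigs tested), with member contigs replaced by their sum for gene values. CPM used the TMM-scaled library size. DESeq2 1.42.0, the edgeR exact test and limma 3.58.1 (voom) were alternatives, with other scalings, filters and sets of contigs, and each library left out in turn. The 2 alternatives that add contigs of the read clusters were chosen after seeing the data. The fit was tested on simulated data. Named contigs were all 12 members, the calcium-handling list and the 5 contigs nearest in pattern to each gene, with 0.5 added to each count. Lists followed entry-name prefixes.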

Additional observations from a re-analysis of the deposited data

Results flagged for a closer look

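Among 34 sets of 4 values examined, 4 had a library far from the other 3 of its group by Dixon's criterion. Chance marks about 1 in 20 such sets if values are normally distributed, which was not tested for these unlogged values from few counts. All 4 marked sets concern Control4. Its RYR1 level of 5.15 CPM lay above the other Control limbs, which ranged from 0.236 to 1.05 CPM. The contigs TR24046 c7_g1_i1, at an FPKM of 0.471, TR17032 c4_g1_i1, at 0.255, and TR17032 c6_g1_i1, at 0.314, were marked in the same library. They share this library and are not independent marks. The sarcomere list was also highest there among Control limbs, at 1142 CPM, and its part in these values was not tested.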

How the results depend on the processing

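The log2 fold changes stayed positive under all alternatives run. All members came from a list made on this contrast and had a higher Multi-amp mean, so nothing is read from the sign. With all 8 libraries, the fitted values ran from 3.46 to 4.37 for RYR1 and from 3.63 to 4.16 for RYR3. Differences on the log2(FPKM + 1) scale, which understates low levels and is not a fit, were 2.70 for RYR1 and 2.18 for RYR3. With 0.1 added in place of 1, they were 3.86 and 3.18. Leaving out 1 library at a time gave 3.56 to 5.77 for RYR1 and 3.41 to 4.88 for RYR3. For the RYR1 to RYR3 log2 ratio it gave 0.26 to 0.85, and all contigs of the read clusters gave -0.75. For the ratio to the sarcomere list it gave -0.037 to 0.54 for RYR1 (lowest without Control6) and -0.63 to -0.29 for RYR3, and titin and nebulin alone gave -0.83 and -1.48. The cause was not tested. Over all contigs, 4 passed the FDR threshold in the quasi-likelihood test, 8 with library totals only, 21 with no filter, 9 with at least 10 summed counts, 387 with the edgeR exact test and 768 with DESeq2, and 2 to 14 with 1 library left out. Of the 3 members tested, the exact test called 2, against 0.885% of all tested contigs called higher. DESeq2 called 3 of 3, against 1.74%. All 12 were tested and higher with no filter or with at least 10 summed counts, and 3 to 8 with 1 library left out. The share of all contigs higher in those settings was not computed. Nothing is read from these counts, since the members were selected on this contrast. Scaling cancels in the ratio of the genes, so it was not varied there. No paired analysis was made, since Control and Multi-amp limbs came from different animals.

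Depth limits the Control values most: whole gene sums there rest on as few as 4 counts for RYR1 and 5 for RYR3.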
